A study of Arabidopsis thaliana with 18 samples.

Results

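Cytochrome P450 genes were followed in Arabidopsis thaliana roots across 6 groups of arrays. They were the genes whose symbol in the array's annotation had the full P450 form (CYP, a family number, a subfamily letter and a gene number) on a probe set naming 1 gene only. Of 22746 probe sets on the array, 22 met this rule, each for a different gene, so that no gene needed a choice between probe sets. Of these 22 genes 18 belonged to the CYP71B subfamily, and the other 4 were CYP51G2, CYP78A9, CYP79A2 and CYP84A4. The set is a small part of the family, since the RefSeq gene table holds 225 genes with a symbol of this form.

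Root RNA from 3 genotypes at 2 iron supplies was hybridised to 18 Affymetrix ATH1 arrays of 1 colour, and each of the 6 groups held 3 replicates that the submitters' design text calls biological. The genotypes were Col-0, the wild type, a line in the Col-0 background that overexpresses the cucumber gene CsUBC13 (CsUBC13-OE), and ubc13A, labelled ubc13-/- and also in the Col-0 background. UBC13 is an enzyme that conjugates ubiquitin. Seedlings were transferred at 10 days of age to ES medium with iron (Fe) or to ES medium to which no FeEDTA was added, and their roots were frozen 3 days later. The promoter of the transgene and the number of independent lines behind each genotype are not given in the sources used here.

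Cytochrome P450 enzymes carry a haem iron at their active site, where they use molecular oxygen and electrons from a reductase to oxidise a bound substrate, most often by adding a hydroxyl group. In plants they act in the synthesis of phenylpropanoids, hormones, sterols, wall lipids and defence compounds. The CYP71B subfamily is one of the largest in Arabidopsis, and its best known member, PAD3 (not measured by a probe set of its own here), makes the defence compound camalexin. Many CYP71B genes lie side by side in the genome and most have no established substrate. In the order of genes in the TAIR10.1 table, 11 of the 22 genes lay on chromosome 3 between AT3G26150 and AT3G26330, in 2 runs of 5 and 6 genes. A run was a set of genes at most 5 gene steps from the next. CYP71B27, CYP71B28 and CYP71B29 formed a run of 3 on chromosome 1, CYP71B5 and CYP71B31 a run of 2 on chromosome 3, and 6 genes stood alone.

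All values are signals on the authors' linear scale, and differences are given as log2(signal + 16), without Fe minus with Fe unless stated. A gene was called, and is said to have risen or fallen, when limma's test over all 22746 probe sets gave a Benjamini-Hochberg adjusted p under 0.05. No detection calls were used. Of the 22 genes 14 were among the dimmest 40% of probe sets by their mean over all arrays, and 11 never exceeded a signal of 70 on any array. Nothing in the files shows that signals of that size exceed background. The SD of log2 values within groups had a median of 0.46 over the 14 dim genes and of 0.25 over the other 8. Signals of different probe sets are not comparable as levels, so supplies and genotypes are compared within each gene. The ranking by mean signal and the marker sums below do set signals of different probe sets together.

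The root label was checked on 3 of 17 root markers and on 4 of 14 markers of green tissue that had a probe set of their own. Over all arrays the root hair expansin genes EXPA7 and EXPA18 gave signals from 328 to 865.7 and from 465.9 to 1223, and the root beta-glucosidase gene BGLU23 (PYK10) from 12891 to 22636. The summed signal of these 3 ran from 17457 to 17851 with Fe and from 15290 to 18420 without Fe in Col-0, from 17450 to 19838 and from 14466 to 16807 in CsUBC13-OE, and from 20358 to 24186 and from 17253 to 18462 in ubc13A. Without Fe it was lower with no overlap in CsUBC13-OE and ubc13A, and in Col-0 the supplies overlapped. Markers of green tissue were also present, and the summed signal of the 4 genes ran from 3291 to 4078 in Col-0 with Fe and from 2436 to 2746 without Fe. The same sum ran from 3778 to 4017 and from 1911 to 2637 in CsUBC13-OE, and from 2232 to 3140 and from 1857 to 2544 in ubc13A. In Col-0 and CsUBC13-OE these ranges did not overlap between supplies, and in ubc13A they did. BGLU23 made up most of the root sum, and EXPA7 went the other way. Mean EXPA7 signals with and without Fe were 710.2 and 714.4 in Col-0, 662.8 and 726.1 in CsUBC13-OE, and 513.8 and 677.5 in ubc13A. Among the green markers PRK was higher without Fe in ubc13A, with means of 202.0 and 214.6. All other marker means were lower without Fe in each genotype. The lower sums moved with the falls described next, and their part in them was not tested. In bulk roots, fewer cells of a type and less RNA per cell cannot be told apart.

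CYP71B5 (AT3G53280), for which no substrate is established, rose without Fe in all 3 genotypes. In Col-0 its signals were 1.5, 8.2 and 0.8 with Fe and 1462.8, 2630.1 and 2195.4 without Fe. The CsUBC13-OE arrays gave 1.1, 4.5 and 3.9 with Fe and 1221.3, 2391.3 and 2224.3 without Fe. Those of ubc13A gave 3.7, 0.6 and 16.6 against 1772.6, 1843.2 and 1850.8. Every array without Fe gave at least 1221.3 and every array with Fe at most 16.6, so the supplies were separated by a wide gap in each genotype. The log2 change of CYP71B5 was 6.74 in Col-0 (SE 0.28, adjusted p = 8.68e-10), 6.62 in CsUBC13-OE (SE 0.28, adjusted p = 8.45e-10) and 6.38 in ubc13A (SE 0.28, adjusted p = 1.44e-09). Because the signals with Fe are near the bottom of the scale, the size of the change depends on the pseudocount: in Col-0 it was 9.20 with a pseudocount of 1 and 4.96 with one of 64. The direction and the call held under both, and without any 1 of the arrays compared.

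CYP71B31 (AT3G53300), the other gene in the run of CYP71B5, stayed at signals from 0.9 to 12.1 over all 18 arrays. In Col-0 without Fe it gave 11.3, 12.1 and 2.9 against 1.0, 4.3 and 2.7 with Fe, and the groups overlapped. Its log2 change of 0.39 there did not pass the test (SE 0.14, adjusted p = 0.170), though without Col-0 replicate 3 without Fe it was 0.57 and passed (adjusted p = 0.0151). In CsUBC13-OE it stood at -0.03 and in ubc13A at 0.03. The pair thus held the P450 gene with the largest Fe response of the 22 and one with no signal above 12.1 at either supply.

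**Figure D1:**
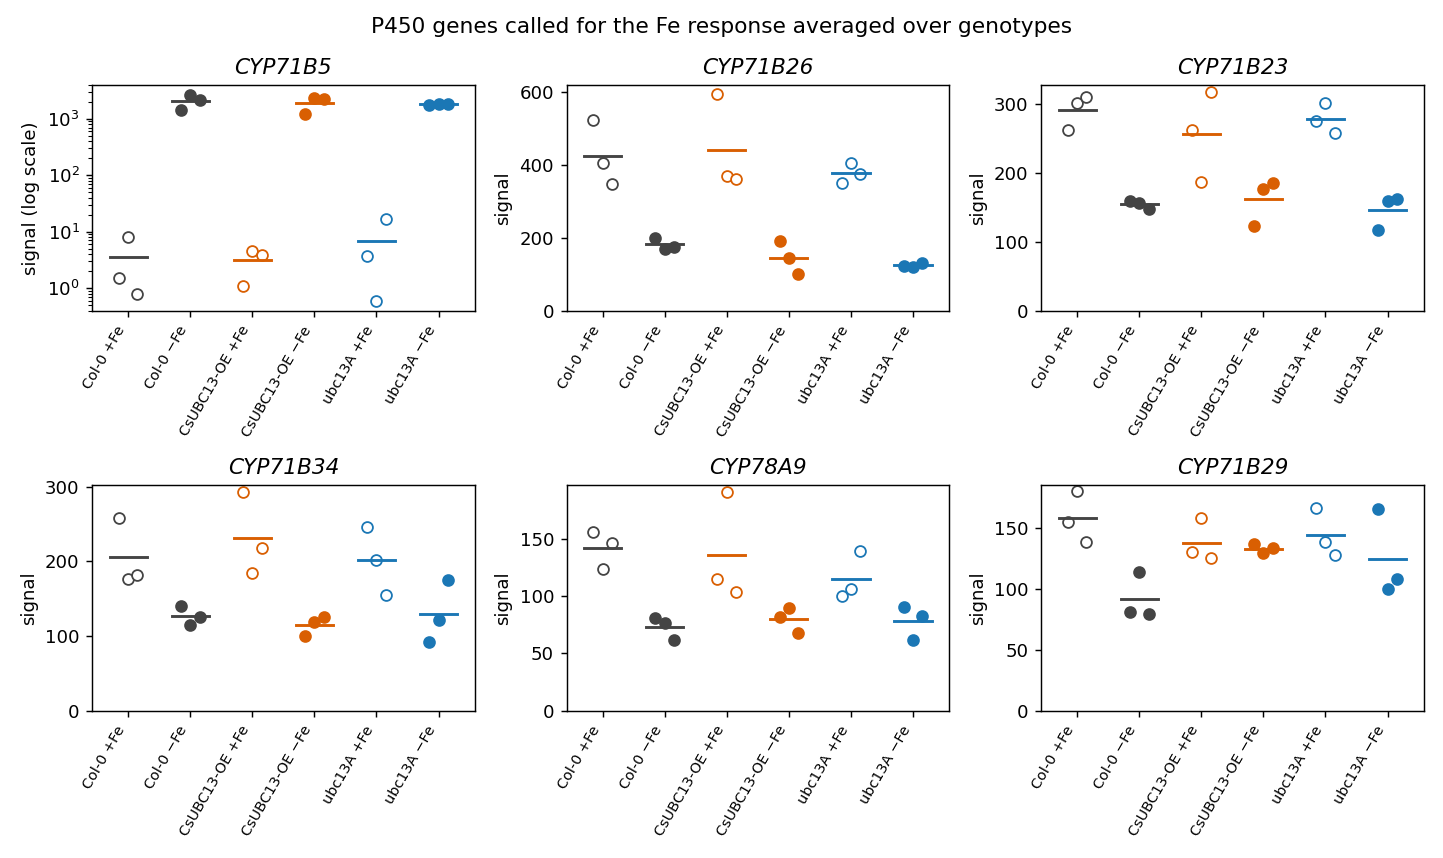
Signal of 6 P450 genes on each of the 18 arrays, by genotype and Fe supply (open points with Fe, filled points without Fe, horizontal lines the arithmetic means of 3 arrays). The axis of CYP71B5 is logarithmic and the others are linear from 0. CYP71B5 lies at or below 16.6 on every array with Fe and at or above 1221.3 on every array without Fe, while CYP71B26, CYP71B23 and CYP78A9 are lower on all 9 arrays without Fe than on all 9 with Fe.

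The falls with the smallest adjusted p in the average, those of CYP71B26 and CYP71B23, were in the 2 chromosome 3 runs. CYP71B26 (AT3G26290) gave signals of 523.1, 404.6 and 346.7 in Col-0 with Fe and of 199.8, 171.0 and 175.9 without Fe. In CsUBC13-OE its signals were 594.9, 370.9 and 360.6 with Fe and 190.9, 144.5 and 102.3 without Fe. In ubc13A they were 350.0, 404.3 and 376.1 against 124.5, 119.8 and 131.6. No array without Fe reached the lowest array with Fe, in any genotype. CYP71B26 fell by 1.14 on the log2 scale in Col-0 (SE 0.21, adjusted p = 0.00387), by 1.5 in CsUBC13-OE (SE 0.21, adjusted p = 0.000319) and by 1.47 in ubc13A (SE 0.21, adjusted p = 0.000491). Averaged over the 3 genotypes the fall was 1.37 (SE 0.12, adjusted p = 8.67e-07), which left 0.387 of the signal plus 16. Leaving out any 1 array ended none of these calls. In a fit of the 6 CsUBC13-OE arrays alone its adjusted p was 0.0556.

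CYP71B23 (AT3G26210), in the other run of the same stretch, gave signals of 263.3, 302.2 and 311.0 in Col-0 with Fe and of 160.4, 156.7 and 147.8 without Fe. In ubc13A it gave 275.3, 301.6 and 258.3 against 117.1, 159.7 and 162.9. The groups did not overlap, and CYP71B23 fell by 0.85 in Col-0 (SE 0.18, adjusted p = 0.0112) and by 0.87 in ubc13A (SE 0.18, adjusted p = 0.0113). Signals in CsUBC13-OE were 262.8, 188.0 and 318.3 with Fe and 123.8, 176.7 and 186.2 without Fe, separated only by 188.0 with Fe and 186.2 without Fe, and the difference of -0.60 did not pass the test (SE 0.18, adjusted p = 0.0826). Without CsUBC13-OE replicate 2 with Fe it was -0.80 and passed (adjusted p = 0.0169), and it also passed with the dimmest 40% of probe sets left out (adjusted p = 0.0329) and with trended, robust moderation (adjusted p = 0.0486). Over the 3 genotypes CYP71B23 fell by 0.77 (SE 0.10, adjusted p = 8.75e-05). The Col-0 call ended without Col-0 replicate 2 or 3 with Fe or replicate 3 without Fe (adjusted p from 0.0504 to 0.0534), and the ubc13A call without ubc13A replicate 1 without Fe (adjusted p = 0.0632) or in a fit of the 6 ubc13A arrays alone (adjusted p = 0.0538).

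CYP71B34 (AT3G26300), the next gene after CYP71B26 in the run, fell in CsUBC13-OE and in the average. Its CsUBC13-OE signals were 292.9, 184.1 and 218.5 with Fe and 100.2, 119.4 and 126.0 without Fe. There the groups did not overlap, and CYP71B34 fell by 0.90 (SE 0.22, adjusted p = 0.0297). In Col-0, with 258.1, 176.7 and 181.3 against 141.0, 114.3 and 125.6, the log2 difference of -0.62 did not pass (adjusted p = 0.169), nor did that of -0.60 in ubc13A (adjusted p = 0.176). Averaged over genotypes CYP71B34 fell by 0.70 (SE 0.13, adjusted p = 0.00136). Its call in CsUBC13-OE alone stood in only 1 of the 6 fits without an array of that genotype, the one without replicate 2 with Fe; without any of the other 5 the adjusted p ran from 0.0630 to 0.122. It also ended with the replicate block (adjusted p = 0.101) and in a fit of the 6 CsUBC13-OE arrays alone (adjusted p = 0.0873).

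The other 8 genes of these 2 runs were not called in any comparison. CYP71B37 (AT3G26330) had signals from 239.9 to 537.4, with a median of 361.1 over the 9 arrays with Fe and of 329.9 over the 9 without, and its averaged change was -0.15 (adjusted p = 0.418). CYP71B16, CYP71B21, CYP71B22, CYP71B24, CYP71B25, CYP71B35 and CYP71B36 never exceeded 62.5. Of the 11 genes in these 2 runs 3 fell in the average, where 8.46% of all probe sets were called lower. The 3 belong to the 5 falls counted over all 22 genes. Genes lying between them that did not meet the rule are not counted.

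CYP78A9 (AT3G61880), of a subfamily known to promote the growth of floral organs, fruits and seeds, fell in Col-0 and in the average. Its signals in Col-0 were 155.7, 123.7 and 146.8 with Fe and 80.7, 76.8 and 62.1 without Fe. In CsUBC13-OE they were 114.8, 190.8 and 103.2 against 81.8, 89.8 and 67.4, and in ubc13A 100, 106.4 and 139.7 against 90.3, 61.5 and 82.4. The supplies did not overlap in any genotype. CYP78A9 fell by 0.83 in Col-0 (SE 0.20, adjusted p = 0.0242) and by 0.65 in the average (SE 0.11, adjusted p = 0.00102), while the differences of -0.63 in CsUBC13-OE and -0.48 in ubc13A did not pass (adjusted p = 0.0972 and 0.222). The Col-0 call ended without Col-0 replicate 1 or 3 with Fe or replicate 2 or 3 without Fe (adjusted p from 0.0571 to 0.116), and with quantile normalization (adjusted p = 0.0628).

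CYP71B29 (AT1G13100) fell in Col-0, from 155.2, 180.6 and 138.7 with Fe to 80.8, 113.6 and 79.7 without Fe. Its change there was -0.71 (SE 0.17, adjusted p = 0.0287). Signals in CsUBC13-OE were 130.6, 158.3 and 125.4 against 136.6, 129.2 and 133.5, with a difference of -0.04, and in ubc13A 166.5, 138.6 and 127.9 against 165.5, 99.9 and 108.5, with one of -0.21. In those genotypes the supplies overlapped. The Col-0 call ended without Col-0 replicate 1 or 2 with Fe or replicate 1 or 3 without Fe (adjusted p from 0.0823 to 0.139), with quantile normalization or centring on array medians (adjusted p = 0.0784 and 0.0598), and in a fit of the 6 Col-0 arrays alone (adjusted p = 0.102). The averaged fall of CYP71B29 (-0.32, SE 0.10, adjusted p = 0.0440) was lost with both of these normalizations (adjusted p = 0.144 and 0.117) and in 14 of the 18 fits without 1 array (adjusted p from 0.0504 to 0.0909) and was kept in those without Col-0 replicate 3 with Fe, Col-0 replicate 2 without Fe, ubc13A replicate 3 with Fe or ubc13A replicate 1 without Fe.

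In all, 1 of the 22 genes rose and 4 fell in Col-0, where 2.21% of all probe sets were called higher and 2.05% lower. In CsUBC13-OE 2 rose and 2 fell, against 2.22% and 2.11% of all probe sets, and in ubc13A 2 rose and 2 fell, against 2.09% and 1.63%. The average over genotypes had more power and called 14.2% of all probe sets, 5.79% higher and 8.46% lower. In it 1 of the 22 rose (CYP71B5) and 5 fell (CYP71B23, CYP71B26, CYP71B29, CYP71B34 and CYP78A9). The median log2 change of the 22 genes was 0.02 in Col-0, -0.13 in CsUBC13-OE and -0.01 in ubc13A, beside -0.04 over all probe sets in each. In Col-0, 1 of the 22 genes was higher and 5 were lower without Fe with no overlap between the supplies, beside 9.1% and 12.9% of all probe sets. In CsUBC13-OE 2 were higher and 6 lower without overlap, beside 8.19% and 11.6%, and in ubc13A 3 were higher and 3 lower, beside 9.04% and 12.8%. With all 9 arrays without Fe set against all 9 with Fe, 1 gene was higher without overlap and 3 were lower without overlap (CYP71B23, CYP71B26 and CYP78A9), where 1.99% and 1.51% of all probe sets were.

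**Figure D2:**
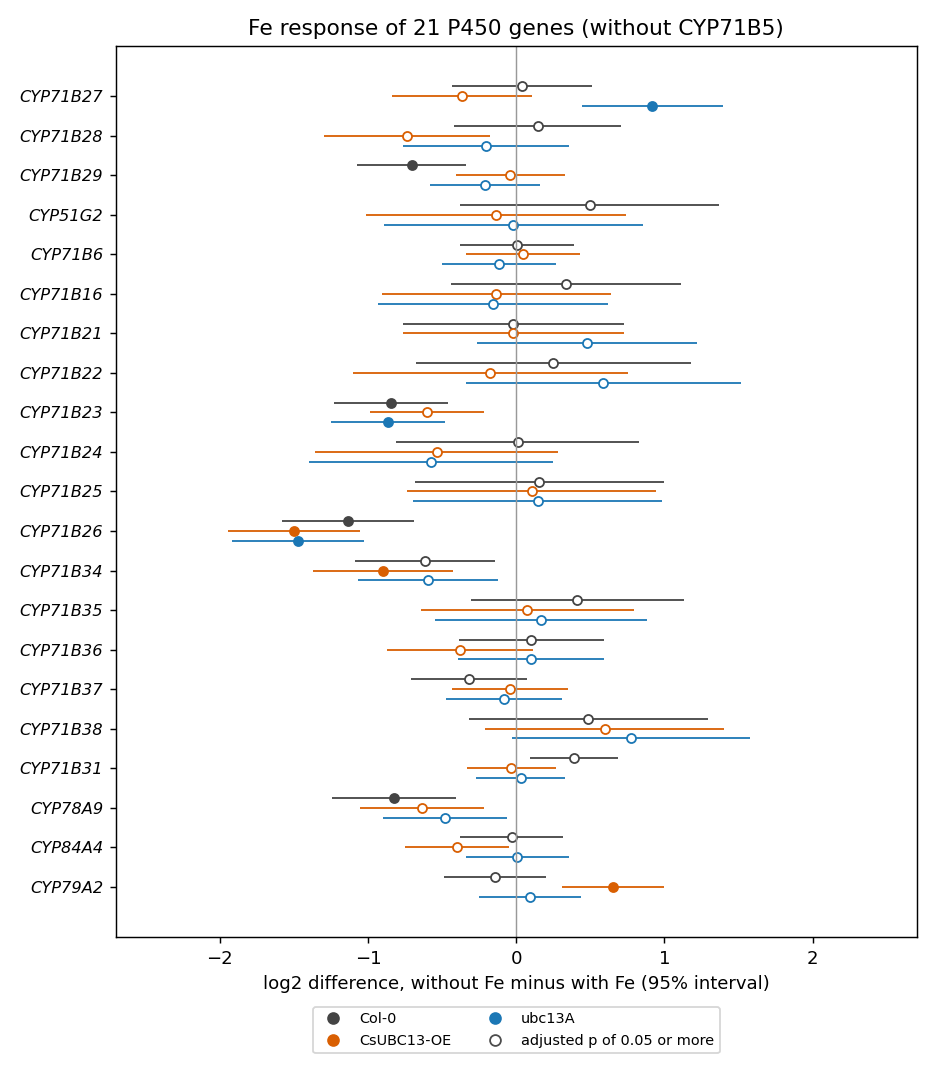
Log2 difference between supplies, without Fe minus with Fe, for 21 P450 genes in Col-0, CsUBC13-OE and ubc13A, in the order of the genes on the chromosomes; bars are 95% intervals and filled points passed the test. CYP71B5, at 6.38 to 6.74, is left out for scale. CYP71B26 is the gene called in all 3 genotypes, and most other intervals include 0.

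The remaining rises were each called in 1 genotype, at low signals. CYP79A2 (AT5G05260) encodes an enzyme that turns phenylalanine into its aldoxime on the way to benzylglucosinolate. It rose in CsUBC13-OE from 2.1, 7.9 and 8.3 with Fe to 24.0, 15.9 and 16.1 without Fe. No other group exceeded 9.5. The change was 0.65 (SE 0.16, adjusted p = 0.0298) and was not called with a pseudocount of 1 or 64, with trended, robust moderation, with the replicate block or in a fit of the 6 CsUBC13-OE arrays alone (adjusted p from 0.0901 to 0.182), nor without CsUBC13-OE replicate 1 with Fe or any 1 of the 3 replicates without Fe (adjusted p from 0.0517 to 0.142). CYP71B27 (AT1G13070), which RefSeq annotates as a transcribed pseudogene, rose in ubc13A from 3.9, 16.6 and 7.4 with Fe to 26.6, 27.0 and 39.9 without Fe. Its change of 0.92 (SE 0.22, adjusted p = 0.0296) was not called with a pseudocount of 64, with trended, robust moderation, with the replicate block or in a fit of the 6 ubc13A arrays alone (adjusted p from 0.0673 to 0.117), and it stood in 1 of the 6 fits without a ubc13A array, that without replicate 2 with Fe; without any of the others the adjusted p ran from 0.0587 to 0.128. In Col-0 CYP71B27 gave 25.6, 13.8 and 16.8 with Fe against 20.8, 14.8 and 23.0 without Fe, and the groups overlapped. They also overlapped in CsUBC13-OE, with 31.4, 54.0 and 22.8 with Fe against 27.9, 18.9 and 23.4 without Fe. The difference there was -0.36 and did not pass.

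The following genes did not pass the test in any comparison. CYP71B6 (AT2G24180), an enzyme of indole metabolism that acts on indole-3-acetonitrile, gave signals from 974.4 to 1574.5, with a median of 1112.5 with Fe and 1043.6 without Fe. Its averaged difference was -0.02 with a 95% interval from -0.24 to 0.20, and of the 22 genes it had the smallest SD over the 18 arrays, 0.20 on the log2 scale. CYP84A4 (AT5G04330), which acts in the synthesis of alpha-pyrones from a phenylpropanoid aldehyde, had the next smallest SD, 0.21, with signals from 88.4 to 174.5. The averaged difference of CYP84A4 was -0.14 (95% interval -0.34 to 0.06). CYP71B38 (AT3G44250) stood at 0.62 in the average without passing (SE 0.22, adjusted p = 0.0742), but passed with quantile normalization (0.70, adjusted p = 0.0387) and without CsUBC13-OE replicate 1 with Fe (0.70, adjusted p = 0.0469). It had a median signal of 21.4 with Fe and of 34.3 without Fe. CYP71B28 (AT1G13090) ran from 87.1 to 257.7 among the 3 Col-0 arrays without Fe, which spanned every Col-0 array with Fe (134.5 to 150.9). In CsUBC13-OE it gave 152.8, 195.5 and 169.0 with Fe against 81.2, 97.4 and 113.1 without Fe. Those groups did not overlap, but the difference of -0.74 did not pass (SE 0.26, adjusted p = 0.164). In ubc13A the supplies overlapped, with a difference of -0.20. CYP51G2 (AT2G17330), annotated as a transcribed pseudogene and a relative of the sterol demethylase gene, had signals from 10.5 to 122 and an SD within groups of 0.55 on the log2 scale, and its averaged difference was 0.11 (95% interval -0.39 to 0.62).

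**Figure D3:**
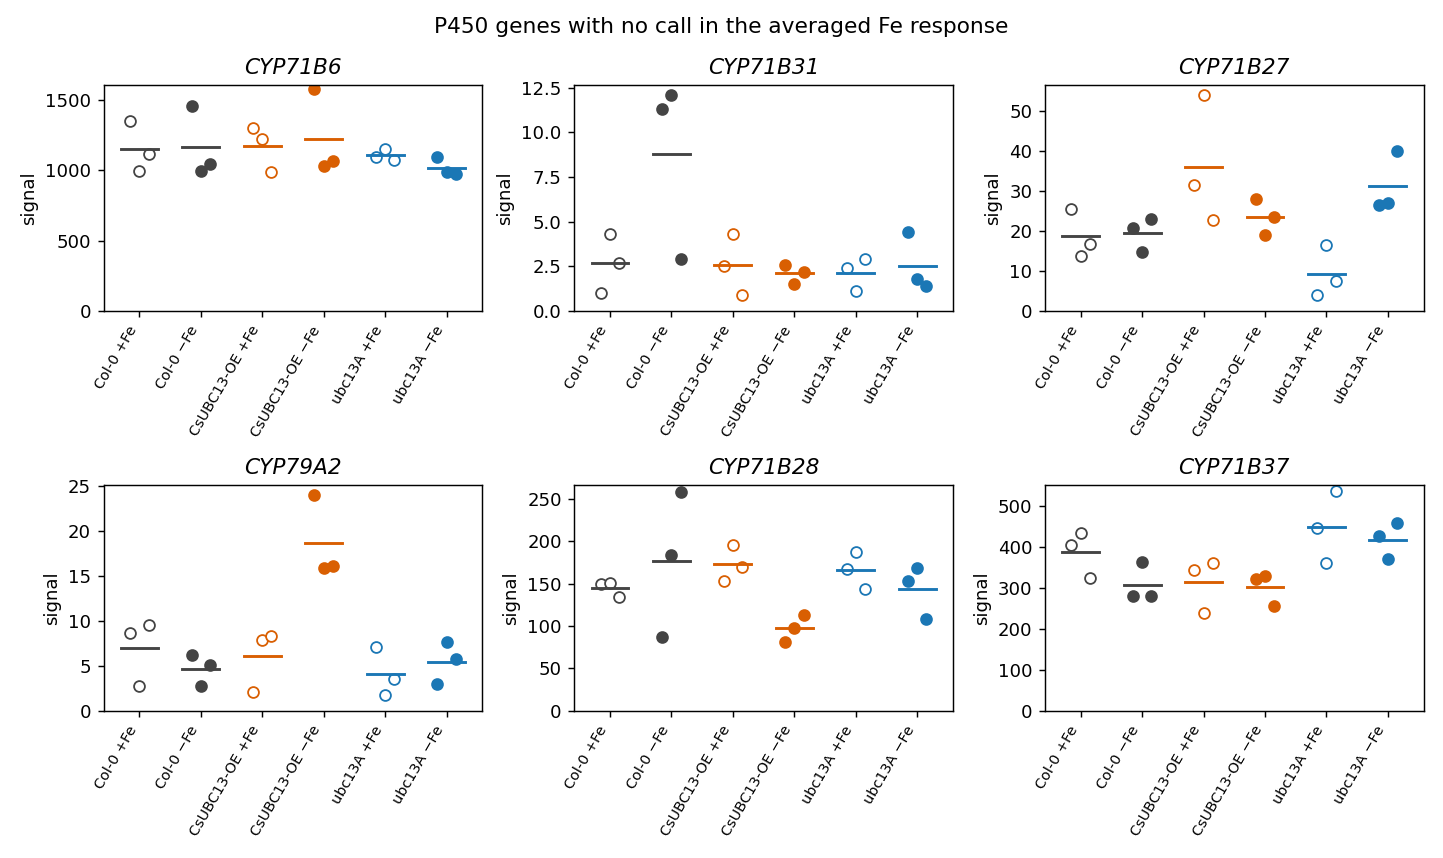
Signal of 6 P450 genes that were not called in the averaged Fe response, on each of the 18 arrays (open points with Fe, filled points without Fe, lines the group means of 3 arrays, linear axes from 0). CYP79A2 without Fe in CsUBC13-OE (15.9 to 24.0) lies above its other groups, CYP71B31 stays at or below 12.1, and CYP71B6 overlaps between supplies.

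Whether overexpression of CsUBC13 or loss of UBC13A altered these genes at a given supply was tested against Col-0. The ubc13A arrays are numbered in the series in a block apart from the Col-0 and CsUBC13-OE arrays. Any difference in handling between the blocks cannot be told apart from the ubc13A genotype. With limma, 0 of the 22 genes were called for CsUBC13-OE with Fe, where 0.0132% of all probe sets were called, and 0 without Fe, where also 0.0132% were. For ubc13A 0 were called with Fe (0.0132% of all probe sets) and 0 without Fe (0.0484%). At an unadjusted p under 0.05 stood 1 gene for CsUBC13-OE with Fe, beside 633 of all 22746 probe sets, and 4 without Fe, beside 792. For ubc13A it was 1 gene with Fe, beside 2238 of all probe sets, and 4 without Fe, beside 2524. The smallest p-values for CsUBC13-OE were those of CYP71B27 with Fe, higher by 0.55 (SE 0.22, adjusted p = 1.0), and CYP79A2 without Fe, higher by 0.74 (SE 0.16, adjusted p = 0.672). For ubc13A they were those of CYP71B27 with Fe, at a log2 difference of -0.47 (SE 0.22, adjusted p = 0.508), and CYP71B31 without Fe, at -0.40 (SE 0.14, adjusted p = 0.294). Without Fe, CYP71B26 was at 124.5, 119.8 and 131.6 in ubc13A and at 199.8, 171.0 and 175.9 in Col-0. These values did not overlap, but the difference of -0.49 did not pass (95% interval -0.93 to -0.04, adjusted p = 0.404). In that comparison 1 of the 22 genes (CYP71B26) was lower and 4 were higher without overlap (CYP51G2, CYP71B21, CYP71B27 and CYP71B37), beside 7.42% and 10.3% of all probe sets. For ubc13A with Fe 0 of the 22 genes lay without overlap, beside 9.87% of all probe sets higher and 6.07% lower. For CsUBC13-OE with Fe 1 was higher (CYP71B28) and 0 lower, beside 3.48% and 3.11%, and without Fe 2 were higher (CYP71B29 and CYP79A2) and 1 lower (CYP71B31), beside 4.72% and 4.18%. All 4 comparisons used the same Col-0 arrays as the Col-0 Fe response.

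The difference of each genotype's Fe response from that of Col-0 was not called for any of the 22 genes with limma. In these tests 0.0044% of all probe sets were called for CsUBC13-OE and 0% for ubc13A. An unadjusted p under 0.05 was reached by 3 and 1 of the 22, beside 605 and 1254 of all 22746 probe sets. The CYP71B5 response of CsUBC13-OE differed from that of Col-0 by -0.12 (95% interval -0.96 to 0.73), and that of ubc13A by -0.35 (95% interval -1.20 to 0.49). CYP71B26 differed by -0.36 (95% interval -0.99 to 0.27) in CsUBC13-OE and by -0.34 (95% interval -0.97 to 0.29) in ubc13A. The lowest difference in CsUBC13-OE was that of CYP71B28, at -0.88 (95% interval -1.68 to -0.09), which did not pass. The smallest p-values were those of CYP79A2 in CsUBC13-OE, at 0.79 (SE 0.23, adjusted p = 1.0), and of CYP71B27 in ubc13A, at 0.88 (SE 0.31, adjusted p = 0.851). CYP71B29, called in Col-0 alone, differed by 0.66 (SE 0.24, adjusted p = 1.0) in CsUBC13-OE and by 0.49 (SE 0.24, adjusted p = 0.889) in ubc13A, so its response is not shown to differ between genotypes.

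**Figure D4:**
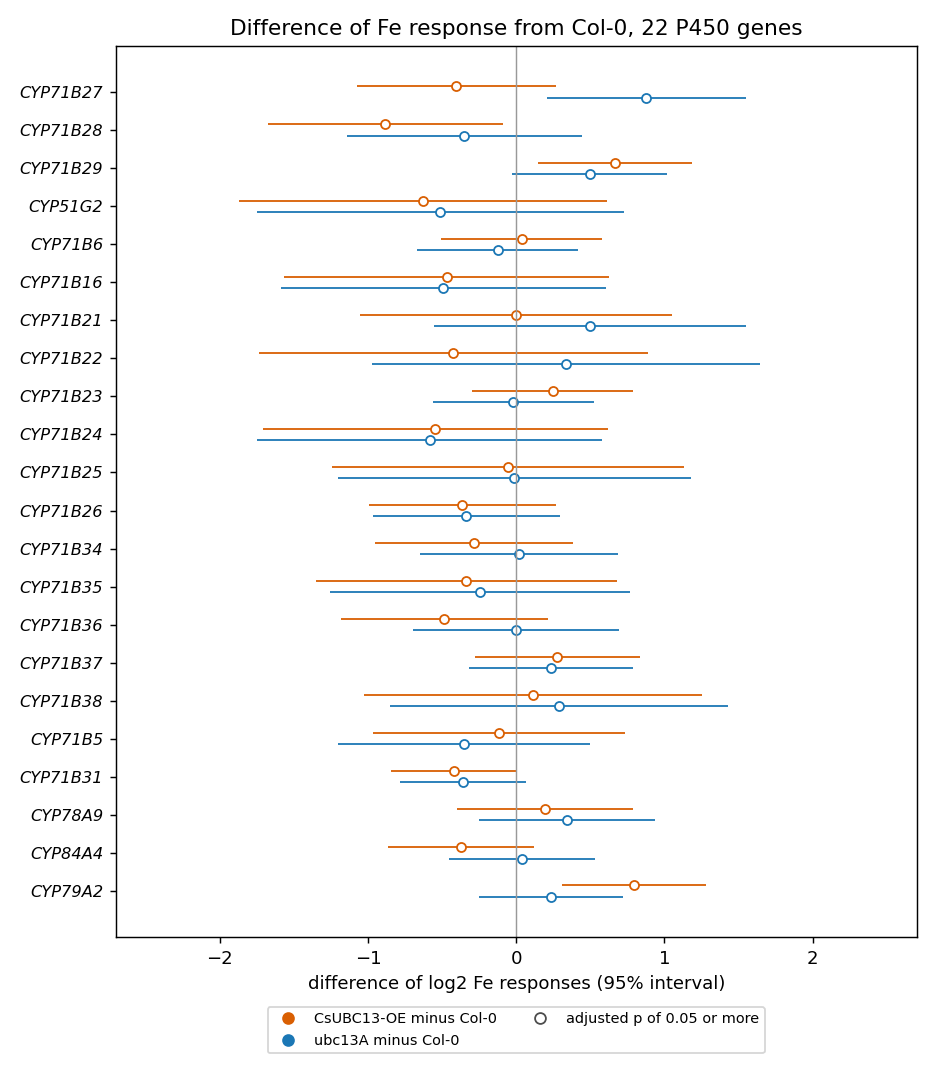
Difference of the log2 Fe response of CsUBC13-OE and of ubc13A from that of Col-0 for the 22 P450 genes, in the order of the genes on the chromosomes; bars are 95% intervals and open points did not pass the test. All points are open, with CYP71B27 at 0.88 in ubc13A and CYP79A2 at 0.79 in CsUBC13-OE among those farthest above 0.

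The haem that every P450 carries is made by the tetrapyrrole pathway. Of 23 listed genes of haem synthesis and breakdown 6 were measured alone, and 0 of these were called in any single genotype. Of all probe sets 4.26% were called in Col-0, 4.33% in CsUBC13-OE and 3.72% in ubc13A. The average over genotypes called 5.79% of all probe sets higher and 8.46% lower. In the average over genotypes GSA1, which encodes an enzyme of 5-aminolevulinate synthesis, rose by 0.27 (SE 0.07, adjusted p = 0.0192), and HEME2, a uroporphyrinogen decarboxylase gene, fell by 0.27 (SE 0.07, adjusted p = 0.0119). HEMA2 stood at 0.10, HEMB1 at 0.06 and HEME1 at 0.00 without passing, and HEMA3, a dim probe set with a mean signal of 44.3, at 0.62 (SE 0.24, adjusted p = 0.107). The list's median was 0.08 beside -0.05 over all probe sets. Of 11 listed electron donors of P450 enzymes (reductases and cytochromes b5), 0 had a probe set of their own. Among the lists of P450 genes by function, 1 of 10 genes of coumarin and phenylpropanoid synthesis was measured (CYP84A4), 2 of 17 of glucosinolate and camalexin synthesis (CYP71B6 and CYP79A2), 1 of 10 of sterol and carotenoid synthesis (CYP51G2) and 1 of 6 of organ growth (CYP78A9), and 0 of the lists for triterpenes, hormones and wall lipids.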

How the data were processed

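The authors deposited a value table with a linear intensity for each probe set on each array. The summarising software was not given in the sources used here. Trimmed means (2%) of the 18 arrays ran from 495.5 to 496.2 and their medians from 189.7 to 210.95, which shows scaling to a common level without quantile normalization. The 64 control probe sets were left out. Names came from the platform annotation, where 13513 of 22746 probe sets named 1 gene, 503 several and 8730 none; 13436 matched RefSeq (TAIR10.1) by Entrez number. The order of genes came from the same RefSeq table, and coordinates are left out.

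The 6 group means were fitted to log2(signal + 16) by limma 3.58.1 under R 4.3.3 (lmFit and eBayes, 12 residual degrees of freedom), with 10 contrasts, each adjusted by the Benjamini-Hochberg method over 22746 probe sets. The number of arrays limits the precision. Figures used Python 3.11.15 and matplotlib 3.10.9. The fit was checked on simulated data.

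Named genes were, per Fe response, up to 12 called rises and 12 called falls of greatest size, per genotype comparison and difference the called genes or, with none called, those with the smallest p, then genes of each list and those of highest mean or least spread. The genes, lists and this rule were chosen with earlier results of these data known; any further gene was named after its values were seen. Same-numbered arrays deviated together (correlations over 0.1 in all 3 pairs) in 2 pairs of groups: the 2 supplies of Col-0 (0.26, 0.11 and 0.15), and CsUBC13-OE against Col-0 in the absence of Fe (0.30, 0.20 and 0.11), a pairing that comes from the data and not from the labels. Alternatives were quantile normalization, centring on array medians, pseudocounts of 1 and 64, leaving out the dimmest 40% of probe sets, trended robust moderation, replicate blocks, fits of the compared arrays alone and fits without 1 array.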

Additional observations from a re-analysis of the deposited data

How the results depend on the processing

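Of 328 refits of the 19 called results of single genes, 269 kept the call, 59 lost it and 0 reversed. In the average over genotypes, 5 or 6 of the 22 genes were called under every alternative run; with quantile normalization CYP71B29 was lost and CYP71B38 gained. In Col-0, where 5 genes were called, quantile normalization called 3, and fits without 1 array called 3 to 4. In CsUBC13-OE, with 4 called, the 6 arrays alone called 1 and fits without 1 array 2 to 5. In ubc13A, also with 4, the 6 arrays alone called 2 and fits without 1 array 2 to 4. With the replicate number as a block, 5 genes were called in Col-0, 2 in CsUBC13-OE, 3 in ubc13A and 6 in the average, so the pairing found in Col-0 changed no call there. No gene was called in a genotype comparison or a difference of Fe responses under any alternative run. The cause of the lost calls was not tested. The filter on dim probe sets removed 14 of the 22 genes, and it kept CYP71B5 only through its arrays without Fe. No gene had a further probe set to compare, and the average already used all arrays.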

Other observations

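The rule left out CYP718, a P450 gene whose symbol has no subfamily letter. Chosen after its values were seen, it had signals of 76.3, 52.3 and 92.4 in Col-0 with Fe and of 3.8, 10.6 and 57.2 without Fe. In CsUBC13-OE the signals of CYP718 were 59.3, 86.3 and 117.7 against 5.9, 55.3 and 12.1, and in ubc13A 203.7, 119.0 and 120.0 against 87.2, 15.9 and 54.8. It was lower by a log2 difference of -1.42 in the average over genotypes (SE 0.30, adjusted p = 0.00442, limma), and did not pass in any single genotype (adjusted p from 0.146 to 0.193). In CYP71B5's own stretch of chromosome 3, the probe set of CYP71B30P, whose symbol carries an added letter, had a mean signal of 6.17 and an averaged change of -0.01. A probe set naming both CYP71B20 and CYP71B19 was also outside the rule. It had a mean signal of 30.1 and an averaged change of -0.54, which did not pass (SE 0.28, adjusted p = 0.250, limma).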
